A study of Mus musculus with 16 samples.

Results

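The genes described here are Myc and 9 partners and rivals of its protein: Mycn, Max, Mxd1, Mxd3, Mxd4, Mxi1, Mlx, Mnt and Mga. They were chosen by name, as genes of the Myc and Max network, and are 10 of the 17159 genes with a value in the deposited depth-normalized table. All 10 had a mean of at least 10 depth-normalized reads over the 16 libraries and were tested.

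MYC is a transcription factor that binds DNA, mostly at a short palindrome called the E-box, when it is paired with MAX. MXD1, MXI1, MXD3, MXD4, MNT and MGA also pair with MAX, and most of them bring co-repressors to the same sites, so that the balance between MYC and these antagonists sets how strongly E-box genes are transcribed. In CD8+ T cells, Myc is induced by stimulation of the antigen receptor and is known for driving cell growth, nutrient uptake and division. MLX belongs to a parallel branch, in which it pairs with the nutrient-sensing factors MondoA (Mlxip) and ChREBP (Mlxipl).

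The cells were CD8+ T cells of C57BL/6 mice, stimulated through CD3 and CD28 for 2 days and then held for 36 h in 1 of 4 media. Of the fresh media, 1 lacked methionine (methionine-free fresh medium) and the other held it (complete fresh medium). The other media were culture supernatant of the mouse melanoma line B16F10, used as it was (supernatant) or after methionine was put back (supplemented supernatant). There were 4 libraries for each medium, numbered 0 to 3, and all 4 groups shared the strain and the stimulation. The labels do not say whether libraries of a group came from separate mice or cultures, so p-values measure only the spread between libraries, which may be technical.

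Reads recovered from the depth-normalized values ran from 25.8 to 42.31 M per library. Libraries of the same medium differed by more than counting noise, with a mean chi-square per gene of 2.65 to 9.01 over 21 pairs. All 7 CD8 T cell markers with values were present in every library (Cd8a at 24020 to 37520 depth-normalized reads, Cd4 at 134 to 200). Their levels differed with methionine. Without and with it in fresh medium, Cd3g had means of 4931 and 15790, Cd3d of 7626 and 13000 and Cd3e of 5850 and 10430. Cd247 and Cd8b1 rose by less, while Cd8a (30630 and 24490) and Cd2 (12530 and 8198) went the other way. Sums over genes listed as markers of other cell types also differed with methionine. B cell markers, mostly Cd79b, lay at 778 to 966 in methionine-free and 503 to 543 in complete fresh medium, and myeloid markers, mostly Ly6c2, at 1820 to 2077 and 7248 to 8075. CD4 T cell markers, mostly Zbtb7b, lay at 3976 to 4121 and 1976 to 2142, and NK cell markers, mostly Eomes, at 1535 to 1703 and 1197 to 1302, reaching 2530 to 2631 in supplemented supernatant. These sums followed their main gene, so they do not show how many cells of a type were present. Other markers of a list could go the other way. Of the myeloid markers, Cd68 rose with Ly6c2 (means of 104 without and 329 with methionine in fresh medium). Lyz2 (14.9 and 6.77), Cd14 (17.9 and 5.03) and Itgam (44.2 and 34.0) had lower means with methionine there. Csf1r (2.88 and 1.60) and Fcgr1 (0.72 and 0.67) were too low for a direction to be read. Cd4 itself had means of 163 and 182, and Klrb1c, an NK cell marker, of 24.6 and 102. Melanoma markers lay at 257 to 282 and 103 to 134 in these media and at 231 to 257 in supernatant. Among them, Pmel had means of 176 in methionine-free fresh medium, 29.1 in complete fresh medium, 131 in supernatant and 27.9 in supplemented supernatant, and Tyr of 37.8, 62.2, 54.2 and 52.8, while Dct and Tyrp1 did not exceed 2.04 and 3.52 in any library. The part of other cell types in the results below was not tested. In these bulk samples a change in the number of cells of a type and a change in RNA per cell cannot be told apart.

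Promoters are printed for 6 members on which the results turn or in which a binding motif was found. RefSeq (GRCm38.p6) gave windows of 250 bases before the transcription start for 9 of the 10 members, all but Myc. Each is printed 5′ to 3′ along the gene's strand, up to the first base that GENCODE M21 counts as an exon of the gene. Capitals mark the E-box CACGTG, and the E2F motifs TTCCCGC and TTGGCGC, on either strand. E2F proteins are the cell cycle regulators of S phase genes. The windows are chr12:12941915-12942086 (Mycn, minus strand), chr13:55329824-55329981 (Mxd3, minus strand), chr5:34187721-34187960 (Mxd4, minus strand), chr11:74830674-74830919 (Mnt, plus strand), chr11:101087040-101087276 (Mlx, plus strand) and chr2:119896978-119897227 (Mga, plus strand).
Mycn: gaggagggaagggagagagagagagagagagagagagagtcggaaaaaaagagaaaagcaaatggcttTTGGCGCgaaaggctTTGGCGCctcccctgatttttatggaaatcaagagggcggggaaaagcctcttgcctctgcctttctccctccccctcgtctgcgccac
Mxd3: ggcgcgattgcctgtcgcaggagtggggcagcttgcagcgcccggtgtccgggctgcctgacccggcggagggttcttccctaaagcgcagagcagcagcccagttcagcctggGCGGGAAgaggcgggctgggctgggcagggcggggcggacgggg
Mxd4: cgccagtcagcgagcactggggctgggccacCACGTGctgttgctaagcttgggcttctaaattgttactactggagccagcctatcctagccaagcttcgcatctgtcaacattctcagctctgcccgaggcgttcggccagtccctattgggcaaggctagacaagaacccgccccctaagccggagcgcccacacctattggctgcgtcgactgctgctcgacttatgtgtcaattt
Mnt: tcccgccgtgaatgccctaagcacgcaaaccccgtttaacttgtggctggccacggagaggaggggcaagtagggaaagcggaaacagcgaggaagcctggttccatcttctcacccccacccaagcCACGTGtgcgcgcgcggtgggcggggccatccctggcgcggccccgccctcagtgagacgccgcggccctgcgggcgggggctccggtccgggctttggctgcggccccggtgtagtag
Mlx: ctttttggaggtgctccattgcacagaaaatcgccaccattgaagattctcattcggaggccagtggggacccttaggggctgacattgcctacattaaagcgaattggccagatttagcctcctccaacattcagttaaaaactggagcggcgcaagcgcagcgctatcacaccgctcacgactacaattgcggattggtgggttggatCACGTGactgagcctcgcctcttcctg
Mga: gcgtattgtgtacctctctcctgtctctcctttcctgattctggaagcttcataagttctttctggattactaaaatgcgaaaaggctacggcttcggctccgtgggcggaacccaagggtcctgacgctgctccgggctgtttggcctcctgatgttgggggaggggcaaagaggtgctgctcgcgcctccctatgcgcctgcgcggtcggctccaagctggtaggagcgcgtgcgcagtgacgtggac

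The E-box was found in 3 of the 9 members with a window, Mxd4, Mlx and Mnt, and in 6.86% of 27025 genes with a window of this length. Its first base lay 219 bases before the start of Mxd4, 123 before that of Mnt and 40 before that of Mlx. An E2F motif was found in 2 of the 9, Mycn and Mxd3, and in 6.45% of all genes. In Mycn the 2 matches began 182 and 167 bases before the start, and in Mxd3 the match began 136 bases before it. The Mga window held neither motif, as did those of Max, Mxd1 and Mxi1. A match describes only the letters of the window.

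The network did not move as 1 block. Removing methionine from fresh medium raised Myc and Mga, lowered Mycn, Mxi1 and Mxd3, and lowered Mlx slightly. All genes were fitted together in limma on log2(value + 1), and a gene was called where its Benjamini-Hochberg adjusted p was under 0.05. By this rule 2 of the 10 members were higher and 4 lower. Over all 12469 genes tested, 85.6% were called, 43.3% higher and 42.3% lower, so the 6 members called are a smaller share than among all genes. Myc and Mxd3 were called and changed at least 2-fold, as did 27.7% of all genes.

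Supernatant against complete fresh medium gave 3 members higher (Myc, Mga and Max) and 5 lower (Mxd3, Mycn, Mxi1, Mnt and Mxd1), where 85.5% of all genes were called, 43% higher and 42.5% lower. Myc and Mxd3 again passed 2-fold, as did 27.6% of all genes. Methionine added to supernatant gave 2 members higher (Mycn and Mxd3) and 5 lower (Mxd4, Mga, Myc, Mxd1 and Mxi1), where 83.7% of all genes were called, 41.8% higher and 41.8% lower. Mycn, Mxd3 and Mxd4 passed 2-fold there, as did 22.3% of all genes. Mxd3 and Mxd4 lay at the 2-fold mark on addition and fell under it in FPKM (0.99 and -0.83 on the log2 scale). The shares of members called are near or below those of all genes.

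Supplemented supernatant against complete fresh medium gave 3 members higher (Mycn, Myc and Max) and 5 lower (Mxd4, Mxi1, Mxd1, Mxd3 and Mnt), where 65% of all genes were called, 32.5% higher and 32.5% lower. Mycn and Mxd4 passed 2-fold, as did 4.84% of all genes. Between supernatant and methionine-free fresh medium, the 2 media without added methionine, 3 members were higher (Max, Mxi1 and Myc) and 1 lower (Mxd3), where 26.8% of all genes were called, 14% higher and 12.9% lower. None of the members passed 2-fold there, against 0.385% of all genes. The effect of methionine (with minus without, log2) differed between supernatant and fresh medium. The difference, supernatant minus fresh medium, was called higher for 2 members (Mycn and Myc) and lower for 3 (Mxd4, Mxi1 and Mxd1). Of all genes 52.6% were called in it, 27.6% higher and 25% lower. For Myc, which fell with methionine in both media, higher means a smaller fall in supernatant. Mycn and Mxd4 passed 2-fold in this difference, as did 4.82% of all genes. The comparisons share libraries, complete fresh medium serving in several, so their values are given side by side and not as repeats of each other.

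**Figure D1:**
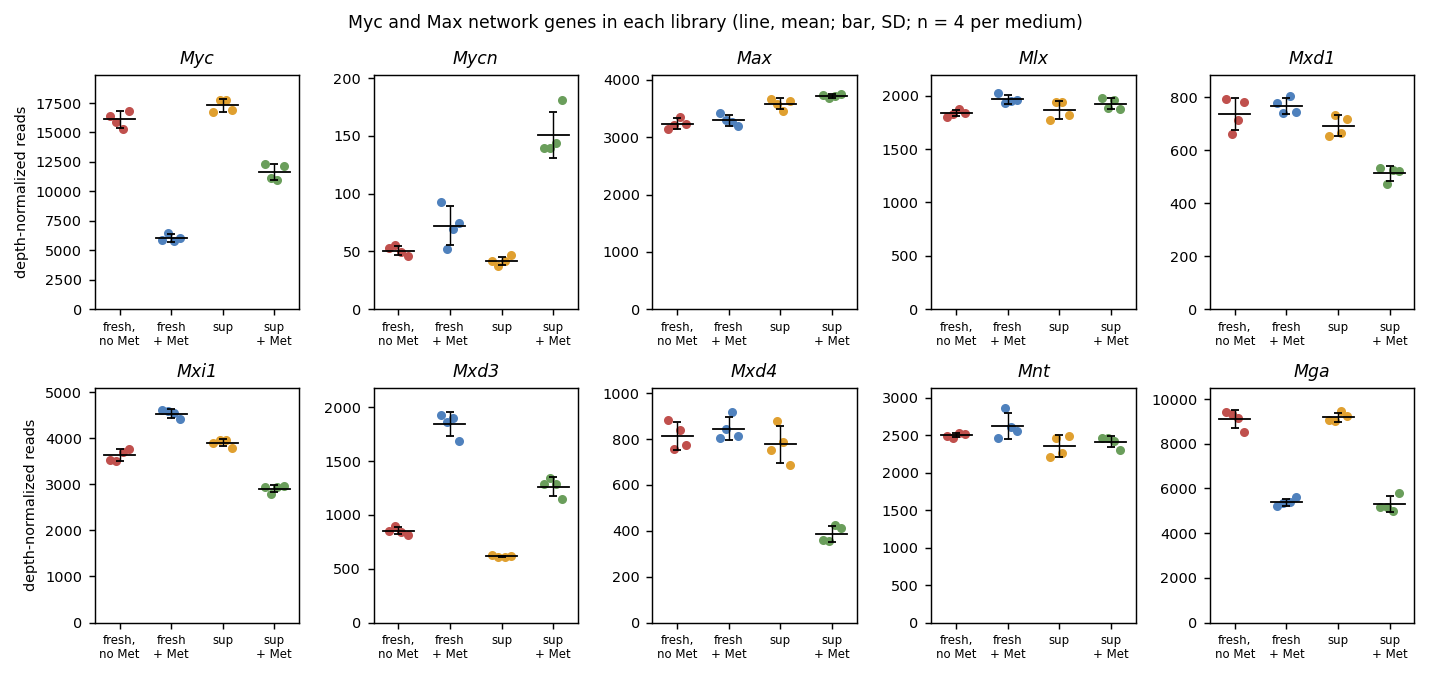
Depth-normalized reads (y axis, from 0) of the 10 network genes in each of the 16 libraries, by medium (x axis; Met, methionine; sup, B16F10 supernatant); points are libraries, lines means and bars SD (n = 4). Myc lay at 15277 or above in both media without added methionine and at 6507 or below in complete fresh medium, Mycn was highest in supplemented supernatant, and Mxd4 was lowest there.

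Myc, the founding member and the one that activates growth genes, was measured at 16410.2, 15864, 15277 and 16857 depth-normalized reads in the 4 libraries of methionine-free fresh medium. It was measured at 5860.03, 6507, 5816 and 6035 in complete fresh medium. Every library without methionine lay above every library with it, and the means were 16102 ± 684 and 6054 ± 316 (SD, n = 4). Myc was thus 2.66-fold higher without methionine (log2 difference 1.41, 95% interval 1.33 to 1.49, limma adjusted p = 2.34e-26).

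In supernatant the 4 libraries of Myc gave 16713, 17765, 17748 and 16929, and in supplemented supernatant 12315, 11103, 10971 and 12126. The supplemented libraries lay below all those of supernatant and above all those of complete fresh medium. Methionine added to supernatant gave a 1.49-fold lower level (log2 difference -0.57, interval -0.65 to -0.496, limma adjusted p = 2.10e-15). Supplemented supernatant remained 1.92-fold above complete fresh medium (0.94, interval 0.86 to 1.02). The methionine effect on Myc differed between the media by 0.84 (interval 0.73 to 0.95, limma adjusted p = 1.15e-14). Supernatant and methionine-free fresh medium overlapped and differed by 0.10 (limma adjusted p = 0.0426). That call was lost without any 1 of 5 libraries, those numbered 0, 1 and 2 of methionine-free fresh medium and 1 and 2 of supernatant (0.08 to 0.11, limma adjusted p from 0.0505 to 0.18).

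Mycn, the paralog best known from the embryo and from neuroblastoma, moved opposite to Myc on methionine removal and on addition, at a far lower level. Its values were 52.8, 55.4, 49.1 and 45.9 in methionine-free and 92.8, 52.2, 69.3 and 74.9 in complete fresh medium. It gave 41.9, 37.5, 41.4 and 46.7 in supernatant and 139, 139.9, 144 and 181 in supplemented supernatant. The supplemented libraries lay above all 12 others, while the 2 fresh media overlapped.

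In supernatant, methionine raised Mycn 3.54-fold (log2 difference 1.82, interval 1.501 to 2.14, limma adjusted p = 1.79e-12). Removing it from fresh medium lowered Mycn by less (-0.48, interval -0.80 to -0.15, limma adjusted p = 0.00618). The effects of methionine in the 2 media differed by 1.35 (interval 0.89 to 1.80, limma adjusted p = 5.53e-06). Mycn in supplemented supernatant was 2.10-fold above complete fresh medium. With scaling to total reads the fall on removal in fresh medium was -0.32 and was not called (limma adjusted p = 0.0592). Mycl, the third MYC gene, was not analysed here.

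Max, a shared partner of MYC, MXD, MNT and MGA proteins, varied little. Its lowest and highest libraries were 3144 and 3361 in methionine-free fresh medium, 3199 and 3421 in complete fresh medium, 3453 and 3672 in supernatant and 3678 and 3761 in supplemented supernatant. Libraries of both supernatant media lay above those of both fresh media. Removing methionine gave a difference of -0.02 (interval -0.09 to 0.04, limma adjusted p = 0.47), and adding it to supernatant gave 0.06 (interval -0.01 to 0.12, limma adjusted p = 0.103). Supernatant against methionine-free fresh medium gave 0.15 (interval 0.08 to 0.21, limma adjusted p = 0.000635). With scaling to total reads both methionine differences changed sign and were called (0.13 on removal and -0.08 on addition).

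Mxd1, the MXD antagonist linked to terminal differentiation, stood lower in supplemented supernatant than in the other media. Its values there were 533, 471, 526 and 522, against 655, 734, 663 and 717 in supernatant and 780, 741, 803 and 746 in complete fresh medium. The supplemented libraries lay below all others, including methionine-free fresh medium, where the lowest was 659. In supernatant, methionine changed Mxd1 by -0.43 (interval -0.56 to -0.31, limma adjusted p = 9.97e-08), whereas removing it from fresh medium gave -0.06 (interval -0.19 to 0.06). The methionine effects differed by -0.49 (limma adjusted p = 1.32e-05). Supernatant against complete fresh medium gave -0.15 (limma adjusted p = 0.024), a call lost without 1 of 4 libraries (complete fresh medium 0 or 2, supernatant 0 or 2; -0.14 to -0.12, limma adjusted p from 0.0501 to 0.083). Over all the alternatives this difference ran from -0.20 to -0.003.

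Mxi1, an antagonist that recruits the SIN3 co-repressor, was highest in complete fresh medium, at 4605, 4581, 4542 and 4406. It lay at 3534, 3496, 3701 and 3769 in methionine-free fresh medium, at 3885, 3963, 3951 and 3792 in supernatant and at 2939.95, 2784, 2939 and 2963 in supplemented supernatant. None of the 4 ranges overlapped another. Mxi1 fell both when methionine was removed from fresh medium (-0.32, interval -0.39 to -0.26, limma adjusted p = 5.77e-11) and when it was added to supernatant (-0.42, interval -0.49 to -0.36, limma adjusted p = 8.37e-14). The methionine effects therefore had opposite signs in the 2 media and differed by -0.75 (interval -0.84 to -0.65, limma adjusted p = 3.36e-15). In the FPKM table (fragments scaled to transcript length and depth) that difference was -0.72 and the fall on removal -0.30, neither called without a replicate block (limma adjusted p = 0.0531 and 0.0942).

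Mxd3, the antagonist expressed in cycling cells and a known E2F target, followed methionine in both media. It gave 851, 897, 845 and 815 in methionine-free fresh medium and 1931, 1858, 1895 and 1686 in complete fresh medium. It gave 623, 612, 609 and 619.89 in supernatant and 1282, 1340.33, 1287 and 1144 in supplemented supernatant. No 2 media overlapped.

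Mxd3 was 2.16-fold lower without methionine in fresh medium (log2 difference -1.11, interval -1.21 to -1.01, limma adjusted p = 5.11e-20). Adding methionine to supernatant raised it 2.05-fold (1.03, interval 0.93 to 1.14, limma adjusted p = 5.26e-19). The methionine effects in the 2 media differed by -0.08 (interval -0.22 to 0.07, limma adjusted p = 0.373). Supernatant against methionine-free fresh medium gave -0.47, and supplemented supernatant against complete fresh medium -0.54. In the FPKM table these last 2 differences were -0.08 and -0.45 and were not called without a replicate block (limma adjusted p = 1 and 0.272). Mxd3 shares 105 bases with Prelid1, a gene on the other strand with a mean of 19156 depth-normalized reads that went from 29482 in complete to 11518 in methionine-free fresh medium. The strand used in counting is not given in the sources used here, so reads of Prelid1 may be part of the Mxd3 values, and their share was not tested.

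Mxd4, an antagonist associated with resting and differentiated cells, had its lowest levels in supplemented supernatant. It gave 359.8, 355, 425 and 410.4 there, against 754, 881, 787 and 687 in supernatant. The fresh media gave 884, 755, 842 and 774 without methionine and 806, 845, 919 and 813 with it. These 2 overlapped, and supernatant overlapped both.

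In supernatant, methionine lowered Mxd4 2.001-fold (log2 difference -1.001, interval -1.14 to -0.86, limma adjusted p = 9.07e-15). Removing methionine from fresh medium gave -0.06 (interval -0.20 to 0.09, limma adjusted p = 0.45). The difference of the methionine effects was -1.06 (interval -1.26 to -0.86, limma adjusted p = 1.05e-10). From FPKM the difference was -1.15, a value not called without a replicate block (limma adjusted p = 0.105). Supplemented supernatant lay 2.18-fold below complete fresh medium.

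**Figure D2:**
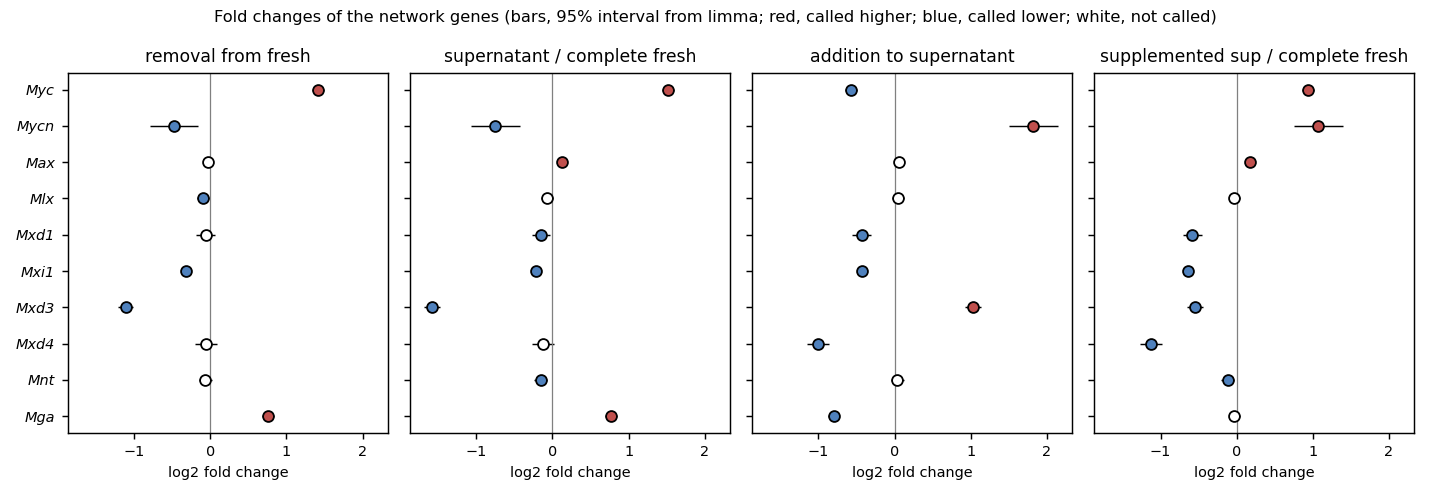
Log2 fold change (x axis) of each network gene (rows) in 4 comparisons; points are limma estimates from 16 libraries, bars 95% intervals, and colour marks a gene called higher (red), called lower (blue) or not called (white). Myc, Mga and Mxd3 pass 0.7 in size when methionine is removed from fresh medium, and Mycn, Mxd3 and Mxd4 pass 1 when it is added to supernatant.

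Mnt, the broadly expressed antagonist of MYC in proliferating cells, gave 2483, 2469, 2531 and 2521 in methionine-free and 2464, 2867, 2603 and 2549 in complete fresh medium. It lay between 2213 and 2494 in supernatant and between 2309 and 2463 in supplemented supernatant. Neither methionine comparison was called, at -0.07 on removal (interval -0.15 to 0.02) and 0.04 on addition (interval -0.05 to 0.12), and with scaling to total reads both changed sign and were called (0.09 and -0.09). Supernatant against complete fresh medium gave -0.15 (limma adjusted p = 0.00126), and over the alternatives this difference ran from -0.22 to -0.0076. Supplemented supernatant against complete fresh medium gave -0.12 (limma adjusted p = 0.016). That call was lost without library 1 of complete fresh medium (-0.07, limma adjusted p = 0.123) or library 3 of supplemented supernatant (-0.10, limma adjusted p = 0.0631), and Mnt on removal was called without library 0 of complete fresh medium (-0.09, limma adjusted p = 0.0482).

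Mga, a very large protein that pairs with MAX and is a subunit of a Polycomb repressive complex, rose with Myc. It gave 9406, 9317, 9150.04 and 8537 in methionine-free and 5220.23, 5349.6, 5392 and 5595 in complete fresh medium. It gave 9063, 9015, 9445 and 9224 in supernatant and 5191, 5166, 4988 and 5814 in supplemented supernatant. The media without added methionine overlapped each other and lay above those with it, which also overlapped each other.

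Mga was 1.69-fold higher without methionine in fresh medium (log2 difference 0.76, interval 0.68 to 0.83, limma adjusted p = 4.24e-19). In supernatant, added methionine lowered it 1.74-fold (-0.80, interval -0.87 to -0.72, limma adjusted p = 1.23e-19). Supplemented supernatant against complete fresh medium gave -0.03 (interval -0.10 to 0.05, limma adjusted p = 0.508), and without library 3 of supplemented supernatant -0.08 (limma adjusted p = 0.0494). The methionine effects differed by -0.04 (interval -0.15 to 0.06). In supplemented supernatant all libraries of Myc lay above those of complete fresh medium, while the ranges of Mga in these media overlapped.

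Mlx, the partner of MondoA, gave 1801, 1832, 1876 and 1835 in methionine-free and 2022, 1933, 1948 and 1957 in complete fresh medium. It lay between 1775 and 1941 in supernatant and between 1877 and 1979.85 in supplemented supernatant. Removal gave -0.10 (interval -0.17 to -0.02, limma adjusted p = 0.0163), which was -0.08 and not called without library 0 of complete fresh medium (limma adjusted p = 0.0555). With scaling to total reads it was 0.06 and not called. Mlx shares 385 bases with Psmc3ip on the other strand, a gene with a mean of 513 depth-normalized reads.

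Levels of different genes were compared per length, in FPKM. Myc was the most abundant member in 3 media, at 202 ± 26.3 FPKM in methionine-free fresh medium, 229 ± 38.3 in supernatant and 162 ± 14.6 in supplemented supernatant (SD, n = 4). Its libraries there did not overlap those of the next member. In complete fresh medium Mxd3 came first (106 ± 18.4) and Myc next (86.6 ± 4.64), with overlapping ranges. Max lay at 49.8 to 57.9 FPKM over the 4 media, and Mlx at 29.4 to 31.5. Mxd1 was below all other members but Mycn, at 3.07 to 4.71 FPKM, and Mycn was lowest, at 0.54 to 2.03. Between them lay Mxd4, Mxi1, Mga and Mnt, whose neighbours in the order mostly overlapped.

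The place of Mxd3 and Mxd4 in that order depended on the length used. With depth-normalized reads per kilobase of all exons in GENCODE M21, an alternative chosen after seeing the data, Myc was first in all 4 media (2228 to 6363). Mxd3 was then below Myc, Mlx and Max in complete fresh medium (778), and Mxd4 was near Mxd1 or Mycn (45.7 to 99.7). The ratio of depth-normalized reads to FPKM per kilobase of exon was 7.28 for Mxd3 and 3.64 for Mxd4, against a median of 22.0 over 9267 genes. These are at percentiles 3.99 and 0.669 of those genes.

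**Figure D3:**
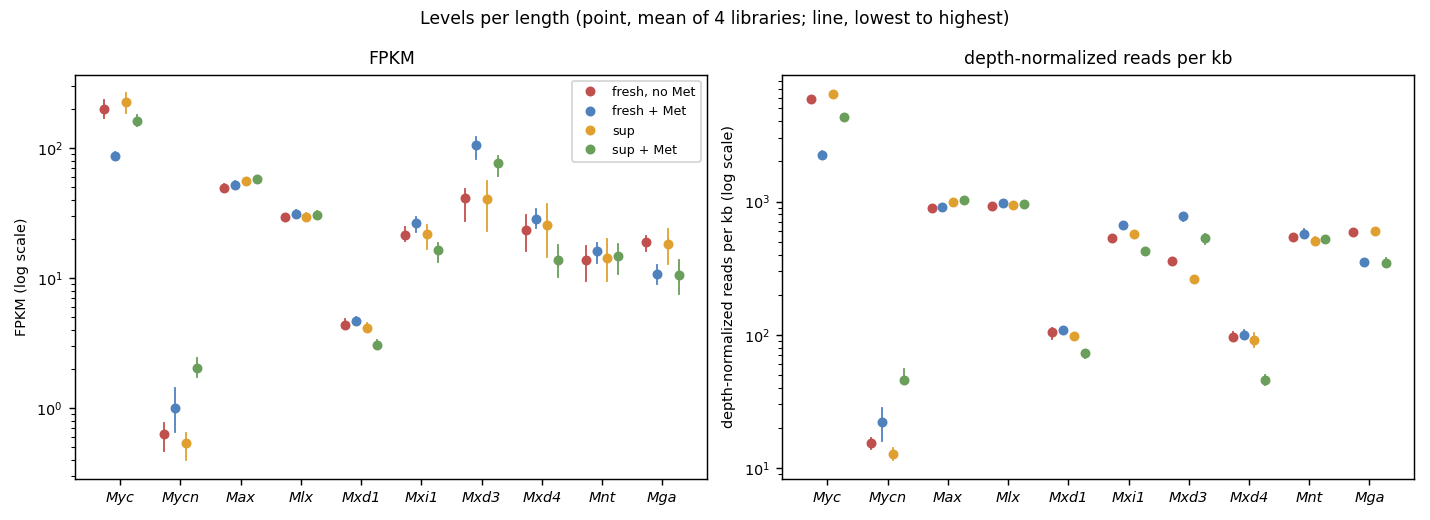
Level per length of each network gene (x axis) in the 4 media, in FPKM (left) and in depth-normalized reads per kilobase of exon (right), both on a log scale; points are means of 4 libraries and lines run from the lowest to the highest library. Myc exceeds Max in every medium on both scales, while Mxd3 and Mxd4 stand higher among the members in FPKM than in reads per kilobase.

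The ratio of Myc to its partner Max, from FPKM in each library, was 4.71, 4.02, 3.92 and 3.61 in methionine-free fresh medium and 1.53, 1.65, 1.63 and 1.78 in complete fresh medium. It was 4.36, 3.85, 4.54 and 3.48 in supernatant and 2.98, 2.56, 2.68 and 2.99 in supplemented supernatant. Supplemented supernatant fell between complete fresh medium and the 2 media without added methionine, with no overlap. The ratio is a description and was not tested.

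The ratio of Myc to the summed antagonists Mxd1, Mxd3, Mxd4, Mxi1, Mnt and Mga was 1.63 ± 0.0736 in methionine-free and 0.456 ± 0.0756 in complete fresh medium (SD, n = 4). It was 1.83 ± 0.0441 in supernatant and 1.20 ± 0.156 in supplemented supernatant. In FPKM, Myc RNA was thus below the sum of its antagonists in complete fresh medium and above it in the other 3 media. Mxd3 alone, at a mean of 106 FPKM in complete fresh medium, exceeded the mean of Myc there (86.6). The level of Mxd3 depended on the length used, and the ratio without Mxd3 was not computed. In reads per kilobase the ratio was 2.66, 0.868, 2.99 and 2.202 in the same order of media. RNA ratios do not give protein levels, which were not measured in these files.

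**Figure D4:**
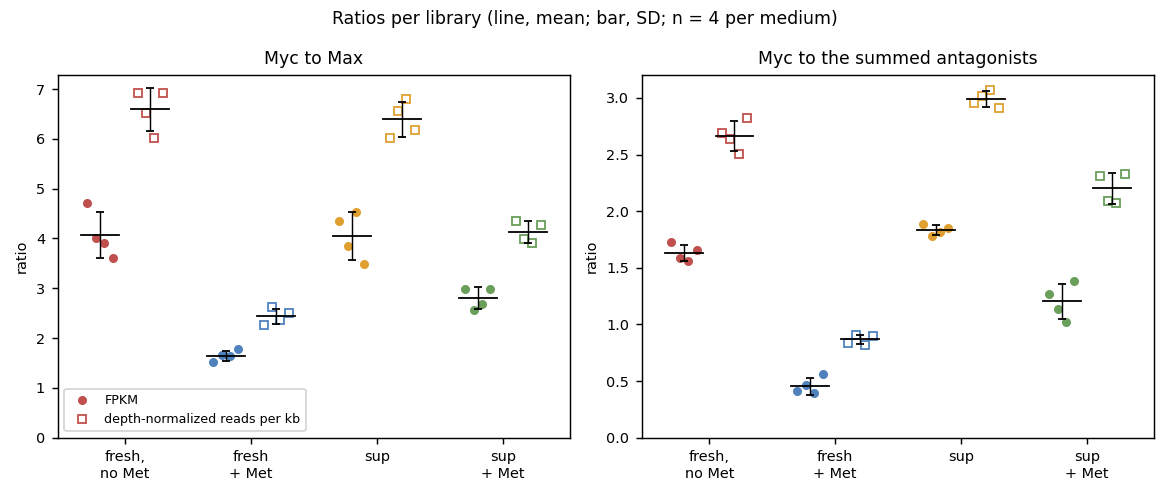
Ratio (y axis, from 0) of Myc to Max (left) and of Myc to the sum of 6 antagonists (right) in each library, from FPKM (filled points) and from depth-normalized reads per kilobase (open squares); lines are means and bars SD (n = 4). On both scales complete fresh medium is lowest and supplemented supernatant lies between it and the media without added methionine.

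Genes whose log2 values followed Myc most closely over the 16 libraries, among 9495 with a mean of at least 100, were Dusp6 (Pearson r 0.997), Osm (0.997), Ccnd2 (0.994), Pprc1 (0.994) and Wdr77 (0.994). Dusp6 is a phosphatase of ERK kinases and a cytoplasmic feedback inhibitor of their pathway, Osm is the cytokine oncostatin M, and Ccnd2 is cyclin D2. The most opposed were Wipf1 (r -0.994), Ripk3 (-0.993), Tiparp (-0.992), Cxcr4 (-0.992) and Casp6 (-0.991). The 16 libraries fall into 4 media, which these genes share with Myc, so the coefficients describe the pattern over media and have no p. Among the members, the coefficient with Myc was 0.81 for Mga and -0.94 for Mxd3, and between -0.65 and 0.23 for the other 7.

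Pvt1, the long noncoding RNA gene next to Myc on chromosome 15, moved with it in part. Its mean was 1429 ± 54.3 depth-normalized reads in methionine-free and 671 ± 63.9 in complete fresh medium (SD, n = 4), a log2 difference of 1.09. It was 1473 ± 56.2 in supernatant and 828 ± 26.1 in supplemented supernatant (-0.83). The methionine effects differed by 0.26 (limma adjusted p = 0.00347), against 0.84 for Myc. Of 15 tested genes of a list of regulators of Myc RNA, removal gave 6 higher and 9 lower, where 43.3% of all genes were higher and 42.3% lower. Their median was -0.31, against 0.01 over all genes. The lowest was Zfp36, a protein that binds AU-rich RNA and speeds its decay, at 512 ± 5.33 without and 1803 ± 101 with methionine (-1.81, limma over all genes).

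Genes around the network proteins are given by list, with the gene of highest and lowest change on methionine removal named. Other names in these paragraphs were chosen after their values were seen. Each count is read against all genes tested, of which 43.3% were called higher and 42.3% lower on removal, and 41.8% higher and 41.8% lower on addition to supernatant, with medians of 0.01 and -0.004. Of 16 MYC co-activators, 8 were higher and 8 lower on removal, with a median of -0.01, close to the shares of all genes. Cdk9, the kinase of elongation factor P-TEFb that releases paused polymerase, rose from 3925 ± 168 to 9607 ± 188 (log2 difference 1.29). Its cyclin Ccnt1 rose by 0.59. Ruvbl2, an ATPase of chromatin remodelling complexes that bind MYC, was lowest, at 2408 ± 29.95 without and 6105 ± 291 with methionine (-1.34). Adding methionine to supernatant moved Cdk9 by -1.27 and Ruvbl2 by 1.496.

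Of 11 co-repressors used by MXD, MNT and the MYC-binding factor MIZ1, 2 were higher, 5 lower and 4 not called on removal, against 43.3% and 42.3% of all genes, with a median of -0.06. Hdac1, a histone deacetylase of the SIN3 complex, gave 4805 ± 98.6 without and 9541 ± 89.6 with methionine (-0.99). Sin3a and Sap30, the scaffold and a small subunit of that complex, gave -0.64 and -0.99. Ncor1, the scaffold of another deacetylase complex, rose by 0.30. On addition to supernatant Hdac1, Sin3a and Sap30 changed by 0.87, 0.51 and 0.61.

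Of 18 regulators of MYC protein stability, 10 were higher, 3 lower and 5 not called on removal, against 43.3% and 42.3% of all genes. Their median was 0.12 on removal, and on addition 8 were higher and 7 lower, with a median of 0.01. Usp36, a nucleolar deubiquitinase that stabilises MYC, gave 4642 ± 109 without and 2049.8 ± 163 with methionine (1.18). Usp28, another deubiquitinase of MYC, went the other way, at 566 ± 45.9 and 1447 ± 80.5 (-1.35). Fbxw7, the ubiquitin ligase subunit that recognises phosphorylated MYC, gave 0.01 and was not called. The methionine effects on Usp36 and Usp28 differed between the media, by 0.64 and -0.30.

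MYC-activated genes did not move as 1 group. Of 34 targets in ribosome assembly, 28 were higher and 6 lower on removal, with a median of 0.87 against 0.01 over all genes. Rrs1, a ribosome assembly factor, gave 4838 ± 171 without and 1077 ± 59.4 with methionine (2.17). Npm1, the nucleolar chaperone, was the lowest, at 34628 ± 1810.2 and 76394 ± 5517 (-1.14). On addition to supernatant 7 were higher, 23 lower and 4 not called, with a median of -0.27. The difference of the methionine effects (with minus without, supernatant minus fresh medium) was called higher for 31 of 34 and lower for 0, against 27.6% and 25% of all genes.

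Of 28 targets in metabolism and transport, 10 were higher, 15 lower and 3 not called on removal, with a median of -0.15, against 43.3% and 42.3% of all genes. Srm, spermidine synthase, gave 5451 ± 133 without and 2084 ± 242 with methionine (1.39), and Odc1, which makes its substrate putrescine, rose by 1.18. Ldha, lactate dehydrogenase A, was lowest (-2.71), with Slc2a1, the glucose transporter GLUT1, at -2.11 and Tfrc, the transferrin receptor, at -2.11. On addition to supernatant 21 were higher and 4 lower, with a median of 0.52, against 41.8% and 41.8% of all genes. Shmt2 and Mthfd2, enzymes of mitochondrial one-carbon metabolism, rose by 1.17 and 1.11 on addition, against -0.08 and -0.06 on removal from fresh medium.

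Of 25 targets in the cell cycle and protein folding, 9 were higher, 15 lower and 1 not called on removal, with a median of -0.22. Pus1, a pseudouridine synthase, rose by 1.57 and Tmem97, the sigma receptor of sterol traffic, was lowest (-1.14). E2f1 and E2f2, of the E2F family, gave -0.53 and -0.89. Of 13 genes that MYC represses, 8 were higher and 5 lower. Gadd45a, a stress gene of growth arrest, rose by 2.10, and Cdkn1a, the cell cycle inhibitor p21, gave 28121 ± 1544 without and 8742 ± 328 with methionine (1.68). Cdkn1b, the inhibitor p27, gave -1.03, and Ndrg2 gave -2.72.

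**Figure D5:**
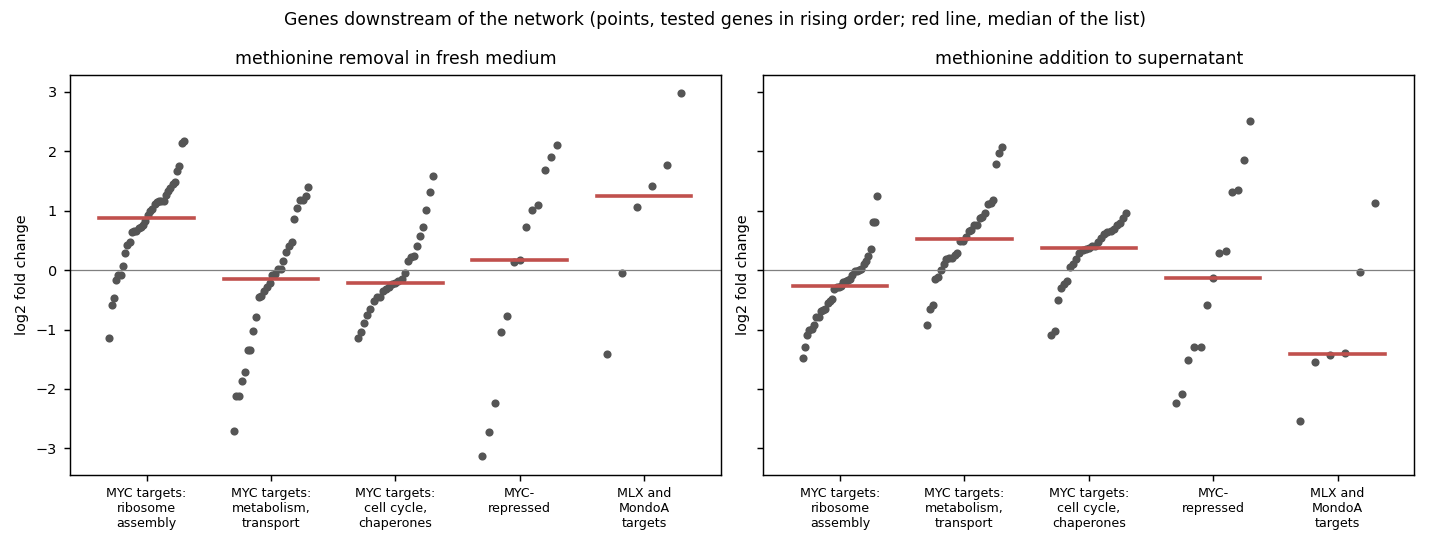
Log2 fold change (y axis) of each tested gene in 5 lists downstream of the network when methionine is removed from fresh medium (left) and when it is added to supernatant (right); points are genes in rising order and red lines list medians. Ribosome assembly targets have a median of 0.87 on removal and -0.27 on addition, and MLX and MondoA targets 1.24 and -1.41.

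The MLX branch was followed through its targets. Mlxip, which encodes MondoA, gave 3755 ± 88.9 without and 5536 ± 251 with methionine in fresh medium (-0.56, limma over all genes), and rose by 0.25 when methionine was added to supernatant. Mlxipl did not exceed 16.2 depth-normalized reads in any library and was not tested. Of 6 MLX and MondoA targets, 4 were higher, 1 lower and 1 not called on removal, and on addition 1 was higher and 4 lower. Txnip, an inhibitor of glucose uptake, gave 33393 ± 610.4 without and 12589 ± 617 with methionine in fresh medium (1.41), and 34589 ± 603 and 12920.3 ± 534 in supernatant (-1.42 on addition). Arrdc4, its arrestin relative, was highest of the list, at 905 ± 17.8 without and 114.5 ± 16.5 with methionine (2.98). Pik3ip1, an inhibitor of PI3 kinase, was lowest (-1.42). Gm15441, antisense to Txnip, had a mean of 108 depth-normalized reads.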

How the data were processed

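RNA sequencing of 16 libraries, 4 for each of 4 media, was analysed from 2 deposited tables. The submitters' processing notes name Cuffdiff 2.2.1, Cufflinks, Bowtie2 2.2.1, TopHat2 2.0.13 and FastQC 0.11.3, and the builds mm10 and GRCm38. Their roles, the read counter, the annotation and the strand are not given in the sources used here. The first table holds a signal for 17159 genes, which the authors deposited as depth-normalized counts. Multiplied by 1 factor for its library, each value was whole, within 0.01 of a read in 100% of values. The second holds the FPKM that the authors deposited, for 23107 genes.

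One model with 4 group means was fitted to log2(depth-normalized value + 1) for 12469 genes whose mean reached 10, using limma-trend (limma 3.58.1 in R 4.3.3). The pseudocount understates changes of low genes. Tests were two-sided, intervals are 95%, and calls needed p under 0.05 after Benjamini-Hochberg adjustment across the 12469 genes. Levels, orders and ratios were described without a test.

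The members and gene lists were chosen with earlier results of these data known. Named genes are the members, Mycl, Mlxip, Mlxipl, Pvt1, Txnip, Arrdc4, the called gene of highest and of lowest change on methionine removal in each list (mean of at least 100), and the 5 genes most and least correlated with Myc. Mycl, Cip2a, Pkm, Trac, Adgre1 and Sox10 of the lists were not analysed here.

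Alternatives were scaling to total reads, quantile normalization, pseudocounts of 0.5 and 8, no filter and a mean of at least 50, FPKM (pseudocount 0.1), a replicate block, only the groups compared, leaving out each library, and edgeR 4.0.16 and DESeq2 1.42.0 on the recovered counts of 15 libraries, the reads of 1 library not being used there. Motifs and lengths came from RefSeq GRCm38.p6 and GENCODE M21.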

Additional observations from a re-analysis of the deposited data

Results flagged for a closer look

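In 2 of 48 sets of 4 libraries, 1 library stood apart from the other 3, and chance gives about 2. Mycn in supplemented supernatant was at 180.95 depth-normalized reads in the library numbered 3, against 139 to 144 in the others. Mxi1 in supplemented supernatant was at 2783.53 in the library numbered 1, against 2939 to 2963.

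The effect of methionine (with minus without, log2) differed between supernatant and fresh medium in 21 of 30 named genes by the interaction test in limma, where 52.6% of all genes were called. Many of these named genes were chosen for the highest or lowest change on methionine removal, and that change is part of the interaction. Their share called therefore cannot be compared with that of all genes. Among the members the difference was 0.84 for Myc, 1.35 for Mycn, -0.49 for Mxd1, -1.06 for Mxd4 and -0.75 for Mxi1. Near Myc and in the MLX branch it was 0.26 for Pvt1, -0.30 for Mlxip, 0.45 for Arrdc4 and -0.29 for Pik3ip1. Among cofactors and regulators it was 0.16 for Ruvbl2, -0.12 for Hdac1, 0.64 for Usp36, -0.30 for Usp28 and -0.43 for Zfp36. Among targets it was 0.87 for Rrs1, 0.81 for Srm, -0.92 for Ldha, 0.49 for Pus1, -0.34 for Tmem97, 0.80 for Gadd45a and -0.88 for Ndrg2.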

How the results depend on the processing

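Of 27 results of members with a log2 difference of at least 0.4, 745 of 751 alternatives kept the direction and the call, 6 lost the call and 0 changed sign. Over all 60 member results, 25 alternatives changed sign, all in differences under 0.4. Of those that kept the sign, 45 lost a call and 9 gained one. Some that changed sign also lost or gained a call and are not in these 2 counts. Scaling to total reads brought the median of all genes to 0.17 on removal and -0.14 on addition (0.0092 and -0.0041 without it) and gave 4 members higher and 2 lower on removal, 3 lower in supernatant against complete fresh medium and 8 lower on addition. Over all 12469 genes it gave 6367 higher and 4371 lower on removal. It gave 4466 lower in supernatant against complete fresh medium and 6164 lower on addition. Under it the sign changed on removal for Max (0.13), Mxd1 (0.098), Mxd4 (0.10), Mlx (0.062) and Mnt (0.094), in supernatant against complete fresh medium for Mxd4 (0.020) and Mlx (0.073), and on addition for Max (-0.076), Mlx (-0.087) and Mnt (-0.095). Quantile normalization changed the sign of Mga in supplemented supernatant against complete fresh medium (0.0032), between the media without added methionine (-0.0024) and in the interaction (0.0056).

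FPKM gave 2 members lower on removal, 2 in supernatant and 3 in supplemented supernatant against complete fresh medium, 0 higher and 0 lower between the media without added methionine, and 1 lower in the interaction. Signs changed for Mxd4 (0.071), Mnt (0.018) and Mga (-0.078) between the media without added methionine and for Max (-0.040) and Mga (0.018) in the interaction, with or without the replicate block. Over all genes, FPKM called 2201 in supplemented supernatant against complete fresh medium (8106 in the depth-normalized table), 37 between the media without added methionine (3344) and 851 in the interaction (6557), and 6818 on addition (10433). Of 13466 genes tested in FPKM, 4112 were called lower on removal and 468 lower in the interaction. Against complete fresh medium, 4174 were lower in supernatant and 1183 in supplemented supernatant. With the block FPKM called 1367 between the media without added methionine, 4057 in the interaction and 10194 on removal. Residuals of libraries with the same number correlated at -0.07 to 0.07 in the depth-normalized table, so the numbers were not taken as pairs in the main model. In FPKM they correlated at 0.09 to 0.46, above 0 in all 24 pairs. There a fit without the block counts what same-numbered libraries share as spread. With a replicate block 2 members were higher and 4 lower on removal in the depth-normalized table, as without it, and 2 higher and 4 lower in FPKM (2 lower without it). In FPKM with the block, the interaction of Mxi1 (-0.72, limma adjusted p = 5.99e-05) and Mxd4 (-1.15, limma adjusted p = 0.00112), Mxi1 on removal (-0.30, limma adjusted p = 0.000529) and Mxd3 in supplemented supernatant against complete fresh medium (-0.45, limma adjusted p = 0.00411) were called. With the block, FPKM gave 1 higher and 0 lower between the media without added methionine. edgeR gave 1 higher there, and leaving out 1 library gave 1 to 3, the lowest count without library 0 or 1 of methionine-free fresh medium. Without either, Mxi1 there was 0.093 and 0.088 and was not called. Leaving out 1 library gave Mga values of -0.016 (without library 3 of methionine-free fresh medium) to 0.030 there, and Mnt values of -0.058 to 0.015 (without library 1 of complete fresh medium) in the interaction. In supernatant against complete fresh medium, Mxd4 was called without library 1 of supernatant (-0.19), and Mlx without library 1 or 2 of it (-0.091 and -0.092). The cause of these changes was not tested.

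In reads per kilobase the ratio of Myc to Max was 6.59, 2.44, 6.39 and 4.13 (methionine-free, complete, supernatant, supplemented) and that to the antagonists 2.66, 0.868, 2.99 and 2.202. In FPKM that ratio was 1.63, 0.456, 1.83 and 1.20, and with Mga left out of the antagonists 1.937, 0.485, 2.18 and 1.31, in the same order. The 2-fold mark was missed by Mxd3 with scaling to total reads (-0.95 on removal and 0.90 on addition) and in FPKM on addition (0.99), by Mxd4 on addition in FPKM (-0.83), with a pseudocount of 8 (-0.99) and without 1 of 4 libraries (-0.99 to -0.94), by Mxd4 in the interaction without library 1 of supernatant (-0.996), and by Mycn in supplemented supernatant against complete fresh medium in FPKM (0.98) and without 1 of 2 libraries (0.93 and 0.98). The fit of only the groups compared gives no interaction. With 4 libraries a medium and no recorded source of libraries, differences near 0.1, and some near 0.15, turn on scaling and on single libraries.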

Other observations

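FPKM of several members varied with the library number within every medium, an order that their depth-normalized reads did not keep in every medium. Mnt gave 16.6, 11.8, 17.6 and 9.57 FPKM in the libraries numbered 0 to 3 of methionine-free fresh medium and 16.5, 10.97, 20.04 and 9.56 in supernatant. In each of the 4 media, libraries 0 and 2 exceeded libraries 1 and 3 in FPKM of Mnt and Mxd4, and libraries 1 and 3 exceeded libraries 0 and 2 in FPKM of Mga and Mxi1. The depth-normalized reads of Mnt in methionine-free fresh medium were 2483, 2469, 2531 and 2521. The coefficient of variation of Mnt there was 27.8% in FPKM and 1.19% in depth-normalized reads, and that of Mxd3 in supernatant was 36% and 1.05%. The labels do not say what the library numbers stand for.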
